A study of Mus musculus with 4 samples.

Results

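The histone genes measured here are the gene names that begin with Hist1h to Hist4h, H2af, H3f3 or H1f and have 10 or more counts in at least 2 of 4 libraries. Of 32531 gene names, 79 matched the pattern and 42 met the count rule. They fall into 32 genes named Hist, the replication-dependent class, and 10 replacement histone genes. A name in the Hist class, the H2B member Hist3h2bb-ps, is annotated as a processed pseudogene. Just inside the rule lay Hist1h2bj, with 10 and 11 counts in the libraries IP 2 and IP 4 and 5 and 2 in input 2 and input 4. Just outside it lay Hist1h2ab, with 4, 8, 11 and 6 counts in the same order, which is kept for all values below. Of the 37 names left out, 9 had no count, and the highest count of any was 19.

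The libraries came from the cerebral cortex of adult mice of the line NIDA030 (Cbln1-EGFP/Rpl10a). All 4 libraries carry this transgene, which tags the ribosomal protein Rpl10a with EGFP in the cells that express it. For the 2 libraries called IP (replicates 2 and 4), tagged polysomes were captured with antibodies to EGFP, and the RNA bound to them was sequenced. The 2 libraries called input (replicates 2 and 4) held total RNA of cortex. No treatment is named. The line is a single transgenic line, no IP from untagged mice was analysed here, and the sources used here do not give sex, the number of mice per library or any pooling. Nothing says that libraries of a group came from separate mice, and a p-value then reflects the spread of these samples alone, which may be technical.

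Histones package DNA. The core histones H2A, H2B, H3 and H4 form the nucleosome, and the linker histone H1 binds where DNA enters and leaves it. Replication-dependent histone genes lie in clusters, mostly lack introns, and are transcribed chiefly in S phase. Their messenger RNAs end just after a conserved stem-loop in place of a poly(A) tail, and the stem-loop binding protein SLBP acts in their processing and translation. Replacement histones are made from ordinary polyadenylated messenger RNAs at any time in the cell cycle and exchange into chromatin without replication, so they are the usual source of new histone protein in neurons, which no longer divide.

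The stem-loop is what sets the classes apart at the level of RNA, so it is printed for the members on which the results turn. The letters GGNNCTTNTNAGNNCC, with all 6 bases of the stem paired, were searched on the sense strand of the annotated transcripts (GENCODE vM21, GRCm38, also called mm10). They were found in 20 of the 32 Hist members and in 1 replacement gene, H2afx, against 8 of 21784 protein-coding genes outside the pattern (0.0367%). Capitals mark the 16 bases of the stem-loop, 5′ to 3′, with 5 bases on each side.
Hist1h4d: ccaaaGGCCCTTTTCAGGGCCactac
Hist1h4f: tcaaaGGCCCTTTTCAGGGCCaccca
Hist1h4a: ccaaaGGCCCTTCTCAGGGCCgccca
Hist2h4: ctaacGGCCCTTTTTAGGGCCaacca
Hist1h1e: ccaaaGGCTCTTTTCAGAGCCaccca
Hist3h2ba: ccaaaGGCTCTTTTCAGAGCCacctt
H2afx: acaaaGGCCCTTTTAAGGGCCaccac
The stem opened with GGCCC in all 6 H4 members that had a match and in H2afx, and with GGCTC in the 14 matches among H1, H2A, H2B and H3 members of the Hist class. The stem-loops of Hist1h4d (chr13:23581950-23581965, plus strand), Hist2h4 (chr3:96262939-96262954, minus strand) and H2afx (chr9:44335240-44335255, plus strand) lie 36, 38 and 46 bases after the stop codon. In 8 of the 12 Hist members without a match no sequence past a stop codon is annotated. All of these but Hist3h2bb-ps end at the stop codon, which left no sequence past it to search. The pseudogene Hist3h2bb-ps has no annotated coding region, and its whole transcript was searched. No match says only that these letters are not in the annotated transcript.

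Total gene counts were 41334423 and 47567384 in the IP libraries and 41385301 and 39750468 in the input libraries. Levels are given as CPM, the counts scaled by TMM-normalised library size, on which 3 counts come to 0.066 to 0.0789 CPM. That floor covers counting error only. Both IP libraries are labelled lane 1 and both input libraries lane 2, and the effect of the lane cannot be told apart from that of the capture. Cbln1, the gene whose regulatory sequence names the line, had 99.3 and 68.6 CPM in IP and 11.9 and 8.55 CPM in input. It was 8.19-fold higher in IP (log2 fold change 3.03 ± 0.17, SE, edgeR adjusted p = 1.39e-10). Endogenous and tagged Rpl10a share sequence, and the name Rpl10a was lower in IP (log2 fold change -1.21 ± 0.24, edgeR adjusted p = 0.000358). Over all 16600 genes tested, 23.4% were higher and 22.4% lower in IP at an edgeR adjusted p under 0.05. The share higher rose with level, from 1.22% under 1 CPM to 63.2% at 500 CPM and over. Differences of the marker lists below from these shares were not tested. Of 12 pan-neuronal markers 10 were higher and 1 lower, and of 8 glutamatergic markers 7 were higher. None of 8 GABAergic markers was higher and 4 were lower. Among 10 oligodendrocyte markers 2 were higher and 6 lower, and among 10 astrocyte markers 4 were higher and 4 lower. For microglia and macrophages (10 markers) the counts were 1 higher and 2 lower, for oligodendrocyte precursors (8) 1 and 2, and for endothelial and mural cells (10) 0 and 1. No marker on these lists was at 0 in all libraries. The summed pan-neuronal level was 33090 to 35050 CPM in IP and 15670 to 16440 CPM in input, of which its most abundant gene, Snap25, was the larger share. Without Snap25 the sums were 7633 to 8016 CPM in IP and 5143 to 5530 CPM in input. The summed astrocyte level was 3731 to 4055 CPM in IP and 4038 to 4046 CPM in input, and that of microglia and macrophages 67.69 to 73.2 and 68.26 to 71.82 CPM, so that both overlapped. Each overlap rested on the most abundant gene. Without Slc1a2 the other 9 astrocyte genes summed to 2013 and 2318 CPM in IP and to 1462 and 1364 CPM in input. Without Csf1r the other 9 microglia and macrophage genes summed to 51.72 and 54.7 CPM in IP and to 61.11 and 58.47 CPM in input. The summed oligodendrocyte level was 1445 to 1474 CPM in IP and 1834 to 1917 CPM in input. Their part in the histone values below was not tested. In such bulk RNA, fewer cells of a type and less RNA per cell cannot be told apart.

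Replacement histone genes took more reads than replication-dependent histone genes in every library. The 10 replacement genes summed to 297.6, 287.1, 275.5 and 253 CPM, and the 32 Hist genes to 114.8, 126.9, 104.9 and 94.5 CPM. The summed Hist counts were 38.6%, 44.2%, 38.1% and 37.4% of the summed replacement counts, so IP 4 stood above the other libraries, which lay close together. Hist1h4d and Hist1h1e alone made up 60.3%, 61.8%, 54% and 51.7% of the Hist counts. Without these genes, the other Hist genes summed to 45.5, 48.4, 48.2 and 45.6 CPM, and the groups overlapped. With library sizes alone in place of TMM, the Hist sums were 105.6, 115.3, 115.2 and 102.9 CPM and the groups overlapped too, while the replacement sums became 273.6 and 261 CPM in IP and 302.7 and 275.5 CPM in input.

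**Figure D1:**
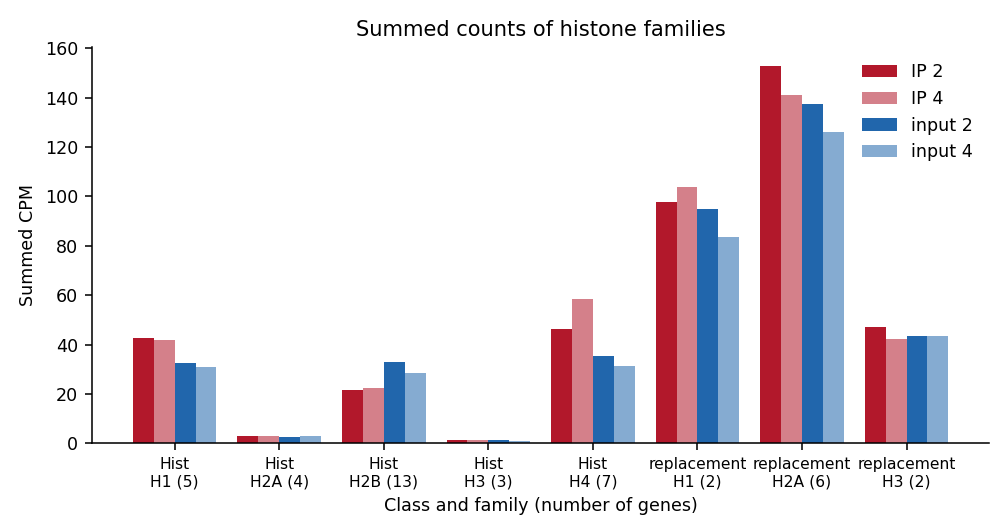
Summed TMM-normalised CPM of the members of each class and family (vertical axis, linear from 0) with 1 bar per library and the number of genes in parentheses. Among the Hist families, the H4 bars are higher in IP (46.2 and 58.5 CPM) than in input (35.3 and 31.3 CPM), and the H2B bars are lower in IP (21.5 and 22.2 CPM) than in input (33 and 28.4 CPM).

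Per kilobase of annotated exon, the scale on which levels of genes can be compared, the H1.0 gene H1f0 had the highest mean level, 48.1 CPM per kb in IP and 42.9 in input. Hist1h4d was the next in IP and the third in input (39.7 and 25.7 CPM per kb), and H2afx, the gene of the DNA damage histone H2A.X, was the third in IP and the next in input (33.7 and 30.9). Hist1h1e stood at 14.9 and 12.2 CPM per kb, H3f3b at 13.8 and 12.9, H2afj at 11.2 and 11.9, and Hist3h2ba at 9.89 and 11.1. The remaining members were below 10 CPM per kb in both groups. H3 genes of the Hist class were low. Hist1h3e stood at 1.04 and 0.81 CPM per kb, Hist1h3f at 0.22 and 0.1, and Hist2h3b at 0.43 and 0.87. Of the replacement genes that encode the H3.3 protein, H3f3b was far above them, and H3f3a stood at 1.06 and 1.43 CPM per kb. Reads that align to several places were left unassigned in the deposited counts, and in the 3 Hist genes 26.6%, 50.7% and 0% of 50-base windows were unique to the gene among annotated transcripts, so they may be undercounted. Windows were compared on both strands, so a gene annotated over the same place also lowers this share, as one antisense to Hist2h3b may.

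**Figure D2:**
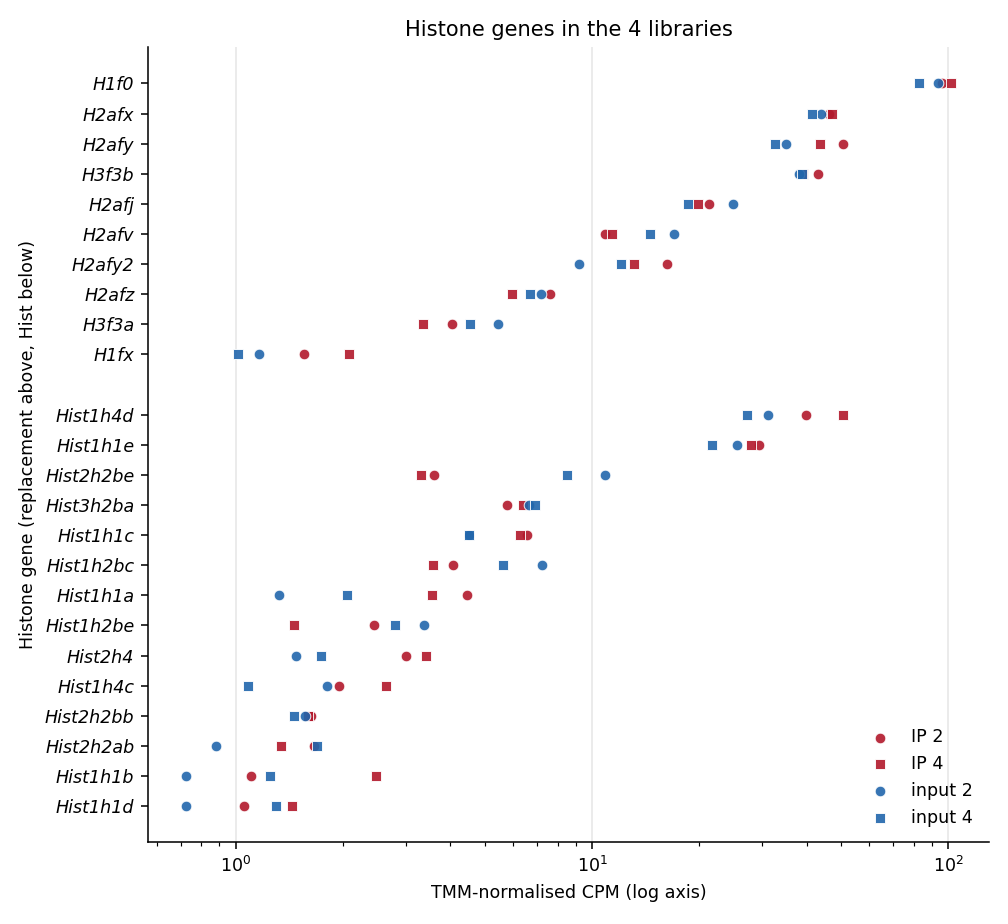
TMM-normalised CPM (horizontal log axis) of the 10 replacement genes and of the 14 Hist genes at or above a mean of 1 CPM, ordered by level within each class, with 1 point per library. IP and input points separate widely at Hist2h2be (3.31 and 3.6 CPM in IP, 8.52 and 10.9 in input) and lie close together at H2afx and H3f3b.

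Of the 40 members that passed the filter on low counts (95.2% of 42), 7 were higher and 3 lower in IP at an adjusted p under 0.05. Over all 16600 genes tested, 45.8% passed in either direction, 23.4% higher and 22.4% lower, and the difference of the histone genes from this background was not tested. In the Hist class 5 of 30 genes were higher, 2 were lower and 23 did not pass. In the replacement class 2 of 10 were higher, 1 was lower and 7 did not pass. The median log2 fold change was 0.40 over the Hist genes, 0.11 over the replacement genes and -0.04 over all genes tested. The fold changes ran from -1.49 to 2.53 in the Hist class and from -0.50 to 0.74 in the replacement class. The lower IP library exceeded the higher input library in 15 Hist and 6 replacement genes, against 35.3% of all genes, and the higher IP library was under the lower input library in 7 Hist and 2 replacement genes, against 37.8% of all genes. Of the 30 Hist genes, 26 reached the cutoff of the filter in at least 1 library of each group. In some of these, such as Hist1h4k, only 1 library of a group reached it. Among the 26, 3 were higher and 2 lower, with a median of 0.36. The Hist median was 0.20 without IP 4, 0.19 over the 12 Hist genes left by a filter of 50 counts in every library of a group, and 0.70 with offsets for transcript length and GC content. Without input 2, only 1 Hist gene was called higher. With library sizes alone the median of all genes moved to -0.29 and those of the classes to 0.14 and -0.15. Relative to all genes the class medians were higher by 0.431 and 0.146 with TMM and by 0.431 and 0.145 with library sizes alone.

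**Figure D3:**
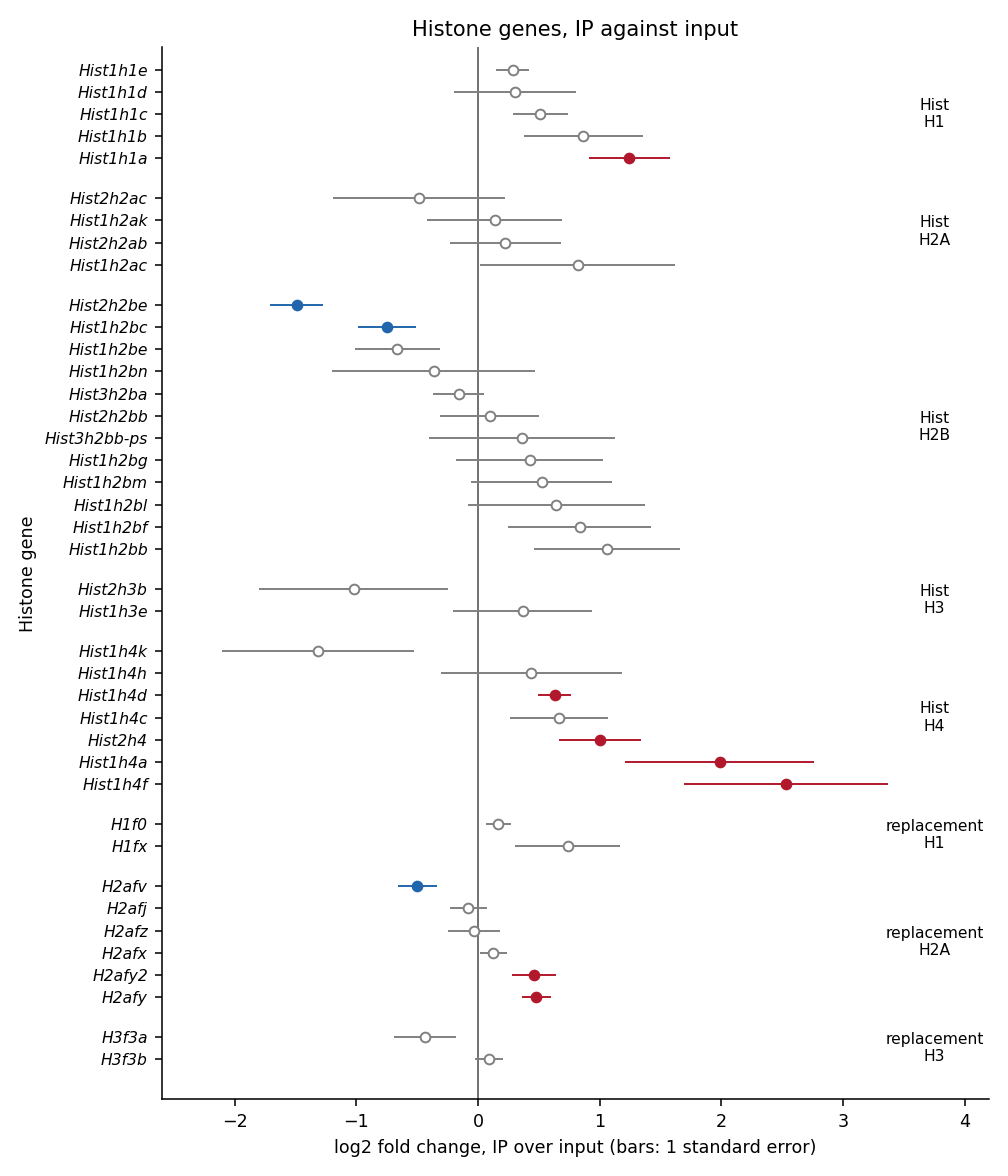
log2 fold change of IP over input (horizontal axis) of the 40 histone genes tested, grouped by class and family, from edgeR's quasi-likelihood fit, with bars of 1 standard error. Filled points have an adjusted p under 0.05 (red higher in IP, blue lower), and the replacement genes span -0.50 to 0.74 where the Hist genes span -1.49 to 2.53.

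Of the 7 H4 genes of the Hist class, 4 were called higher, among them Hist1h4a and Hist1h4f, which entered the test only through the IP group. Beside this, 23.4% of all genes tested were higher, and the difference was not tested. H4 genes encode essentially the same protein, so their messenger RNAs are told apart only by their untranslated ends and synonymous bases. Hist1h4d (ENSMUSG00000061482.7, 1 exon, chr13:23581598-23582735) had 39.8, 50.5, 31.2 and 27.2 CPM. Both IP libraries were above both input libraries, IP 4 the most. It was 1.55-fold higher in IP (log2 fold change 0.63 ± 0.13, SE, edgeR adjusted p = 0.000747) and kept its call under every alternative that was run. Hist2h4 had 3, 3.42, 1.47 and 1.73 CPM and was 2-fold higher (log2 fold change 1 ± 0.34, edgeR adjusted p = 0.0209), with no overlap between groups. Its call was lost with library sizes alone (adjusted p = 0.0803) and without IP 4 or input 2 (0.0868 and 0.11).

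Hist1h4a and Hist1h4f were also called higher, at a far lower level. Hist1h4a had 23, 25, 4 and 9 counts (log2 fold change 1.98 ± 0.78, edgeR adjusted p = 0.0435), and Hist1h4f had 17, 27, 3 and 5 (2.53 ± 0.84, edgeR adjusted p = 0.0187). As both passed the filter on low counts only through IP, a difference in this direction was built into their testing. Neither call held without input 2 (adjusted p = 0.349 and 0.204) or without input 4 (0.114 and 0.103). Both were also lost with DESeq2 (0.105 and 0.0547) and that of Hist1h4a also with library sizes alone (0.0734) and with no filter (0.0818). The H4 genes Hist1h4c (74, 114, 82 and 47 counts) and Hist1h4h (13, 17, 11 and 13) did not pass. Hist1h4c passed with offsets for transcript length and GC content (log2 fold change 1.06, adjusted p = 0.0363). Hist1h4k had 3, 15, 18 and 30 counts, lower in IP than in input, with a log2 fold change of -1.32 ± 0.79 (edgeR adjusted p = 0.185), which became -2.74 (adjusted p = 0.0189) without IP 4. Without Hist1h4d, the other 6 H4 genes summed to 6.42 and 8 CPM in IP and to 4.07 and 4.14 CPM in input.

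Of the 12 H2B genes of the Hist class that were tested, 2 were lower in IP, the only lower calls of the class, and 0 were higher. Beside this, 22.4% of all genes tested were lower and 23.4% higher, and the difference was not tested. Hist2h2be (ENSMUSG00000068854.7, 1 exon, chr3:96221119-96223738) encodes an H2B known from olfactory sensory neurons, and its annotated transcript carries a poly(A) signal and no stem-loop match. It had 3.6, 3.31, 10.9 and 8.52 CPM. The IP libraries were alike and far below both input libraries. It was 2.81-fold lower in IP (log2 fold change -1.49 ± 0.22, SE, edgeR adjusted p = 2.08e-05) and kept its call under every alternative that was run on the whole Hist class. All 50-base windows of its transcript were unique to it among annotated transcripts.

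Hist1h2bc had 4.08, 3.59, 7.24 and 5.61 CPM (log2 fold change -0.75 ± 0.24, edgeR adjusted p = 0.0158). Its call was lost with the length and GC offsets (adjusted p = 0.137) and without IP 4 or input 2 (0.0602 and 0.185). It is 1 of the 2 Hist members with more than 1 annotated exon, and no stem-loop was found in its annotated transcript. The other is Hist1h2be, with 2.45, 1.46, 3.37 and 2.8 CPM and a log2 fold change of -0.66 ± 0.35 (edgeR adjusted p = 0.13). Its call appeared with library sizes alone (adjusted p = 0.034) and without IP 2 (0.0338), but its gene model overlaps that of Hist1h1e on the same strand, where reads may have been set aside as ambiguous.

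Hist3h2ba, which encodes a variant H2B, had the highest level per kilobase of the H2B genes (9.89 CPM per kb in IP and 11.1 in input). It had 5.76, 6.38, 6.64 and 6.93 CPM, the IP libraries slightly below the input libraries (log2 fold change -0.16 ± 0.21, edgeR adjusted p = 0.56). Hist2h2bb had 1.63, 1.6, 1.56 and 1.46 CPM, and all of its 50-base windows recur in transcripts of other annotated genes, so its level is uncertain. Other genes are annotated over it on both strands, and such an overlap alone can lower the share of unique windows. The other 7 H2B genes tested had between 7 and 53 counts in each library and none passed. Without Hist2h2be and Hist1h2bc, the remaining 11 H2B members summed to 13.8 and 15.3 CPM in IP and to 14.8 and 14.2 CPM in input, and the groups overlapped.

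All 5 linker H1 genes of the Hist class had a log2 fold change above 0, and 1 of the 5 passed. Over all 16600 genes tested, 7965 had a log2 fold change above 0 and 23.4% were called higher. Hist1h1a, the gene of H1.1, had 4.45, 3.56, 1.32 and 2.06 CPM and was 2.37-fold higher in IP (log2 fold change 1.25 ± 0.33, edgeR adjusted p = 0.00465), with no overlap between groups. Its adjusted p was 0.05 without input 2. Hist1h1e, the gene of H1.4 and the second most abundant Hist gene, had 29.5, 27.9, 25.4 and 21.7 CPM (log2 fold change 0.28 ± 0.13, edgeR adjusted p = 0.0881). The IP libraries were above both input libraries without passing the threshold, and a call appeared with the length and GC offsets (adjusted p = 0.0492). The gene model of Hist1h1e overlaps those of Hist1h2be and Gm11398 on the same strand, where reads may have been set aside as ambiguous. Ambiguous reads were 1.54% in both IP libraries and 5.07% and 5.09% in input, and how this bears on Hist1h1e was not tested. Hist1h1c, the gene of H1.2, had 6.58, 6.29, 4.51 and 4.5 CPM, again without overlap between groups (log2 fold change 0.51 ± 0.22, edgeR adjusted p = 0.0674).

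Hist1h1b, the gene of H1.5, had 1.1, 2.48, 0.73 and 1.25 CPM (log2 fold change 0.86 ± 0.49, edgeR adjusted p = 0.159), with IP 4 alone well above the others. Without IP 2 it passed (log2 fold change 1.33, adjusted p = 0.0221). Hist1h1d, the gene of H1.3, had 1.05, 1.43, 0.73 and 1.29 CPM and its groups overlapped. Without Hist1h1e, the other 4 genes summed to 13.2 and 13.8 CPM in IP and to 7.28 and 9.1 CPM in input.

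None of the 4 H2A genes and neither of the 2 H3 genes of the Hist class that were tested passed. Hist2h2ab, the H2A member with the most counts, had 1.66, 1.34, 0.88 and 1.69 CPM, and the groups overlapped. The 3 others had between 7 and 49 counts in each library, with log2 fold changes from -0.48 to 0.82. The highest of these was that of Hist1h2ac, which passed the filter on low counts through IP alone. Hist1h3e had 32, 39, 31 and 29 counts (log2 fold change 0.37 ± 0.57), and Hist2h3b had 7, 10, 26 and 12 (-1.02 ± 0.78). Hist2h3b passed the filter on low counts through input alone. Every 50-base window of Hist2h3b recurs in another annotated gene, and a gene antisense to it is annotated. Hist1h3f, with 11, 11, 7 and 4 counts, and Hist1h2bj were the members left out by the filter.

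The 3 calls in the replacement class were all in H2A variants, which are 6 of its 10 genes. Of these 6, 2 were higher and 1 was lower, beside 23.4% higher and 22.4% lower over all genes tested. The difference was not tested. H2afy and H2afy2 encode macroH2A1 and macroH2A2, large H2A variants with a macrodomain that are associated with repressed chromatin. H2afy had 50.5, 43.7, 35 and 32.6 CPM and was 1.39-fold higher in IP (log2 fold change 0.48 ± 0.12, SE, edgeR adjusted p = 0.00302), a call lost only with library sizes alone (0.22, adjusted p = 0.142). H2afy2 had 16.2, 13.1, 9.19 and 12.1 CPM (log2 fold change 0.46 ± 0.18, edgeR adjusted p = 0.0429), with IP 4 close above input 4. Its call was lost with DESeq2 (adjusted p = 0.0654), with library sizes alone (0.368), with the filter of 50 counts (0.0662) and with the offsets (0.0942), and without IP 2 or input 2 its log2 fold change was 0.30 and 0.28 (adjusted p = 0.255 and 0.331). Genes antisense to both are annotated, and the strand setting of the counting is not given in the sources used here, so reads of the partners may be included. Antisense genes are also annotated at H1f0, H1fx, H2afj and H2afx.

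H2afv, which encodes H2A.Z.2, had 10.9, 11.4, 16.9 and 14.5 CPM, with both IP libraries below both input libraries. It was 1.41-fold lower in IP (log2 fold change -0.50 ± 0.16, edgeR adjusted p = 0.0165). The call was lost with the length and GC offsets (adjusted p = 0.0934) and without IP 2 or input 2 (0.0527 and 0.161). H2afz, which encodes H2A.Z.1, had 7.6, 5.97, 7.19 and 6.68 CPM (log2 fold change -0.03 ± 0.21, edgeR adjusted p = 0.913), and its groups overlapped. The difference between the H2A.Z genes was not tested.

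H2afx had 46.2, 47.2, 44 and 41.4 CPM (log2 fold change 0.13 ± 0.11, edgeR adjusted p = 0.373). H2afj, the gene of H2A.J, had 21.3, 19.8, 24.8 and 18.6 CPM, and its groups overlapped (log2 fold change -0.08 ± 0.15, edgeR adjusted p = 0.691). H1f0, the linker histone gene of differentiated cells, had 96.2, 101.6, 93.7 and 82.6 CPM (log2 fold change 0.17 ± 0.10, edgeR adjusted p = 0.194). H1fx, the other replacement H1 gene, had 1.55, 2.08, 1.17 and 1.02 CPM, and its difference was not past the threshold (log2 fold change 0.74 ± 0.43, edgeR adjusted p = 0.173).

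The H3.3 genes had fold changes of opposite sign and neither passed. H3f3b had 43, 39.1, 38 and 39 CPM (log2 fold change 0.09 ± 0.12, edgeR adjusted p = 0.54), while H3f3a had 4.05, 3.35, 5.43 and 4.55 CPM, lower in both IP libraries (-0.43 ± 0.25, edgeR adjusted p = 0.176). Of the windows of H3f3a 72.9% were unique, and a gene antisense to it is annotated. H3f3b carried 91.4% and 92.1% of the H3.3 counts in IP and 87.5% and 89.5% in input. With library sizes alone H3f3a passed (log2 fold change -0.69, adjusted p = 0.031), and the signs of H1f0, H2afx and H3f3b turned (-0.09, -0.13 and -0.17, none called).

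Among all genes tested, calls depended on level, and many Hist genes were rare. Of genes under a mean of 1 CPM, 1.22% were higher and 26.9% lower in IP, with a median log2 fold change of -0.82. The 16 Hist genes tested at that level counted 2 higher and 0 lower, with a median of 0.43. Both higher genes are Hist1h4a and Hist1h4f, which passed the filter through IP alone, so their count cannot be set against that of all genes. Of the 16, 3 in all passed through IP alone and 1 through input alone. Between 1 and 5 CPM, 6.16% of all genes were higher and 25% lower (median -0.31), against 2 higher and 0 lower of 8 Hist genes (median 0.48). Between 5 and 50 CPM, 28.1% of all genes were higher and 20.4% lower (median 0.08). There, 1 of 6 Hist genes was higher and 2 were lower (median 0.06), and 2 of 7 replacement genes were higher and 1 was lower (median 0.09). These values describe the members beside genes of like level, and no test was made of the difference.

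**Figure D4:**
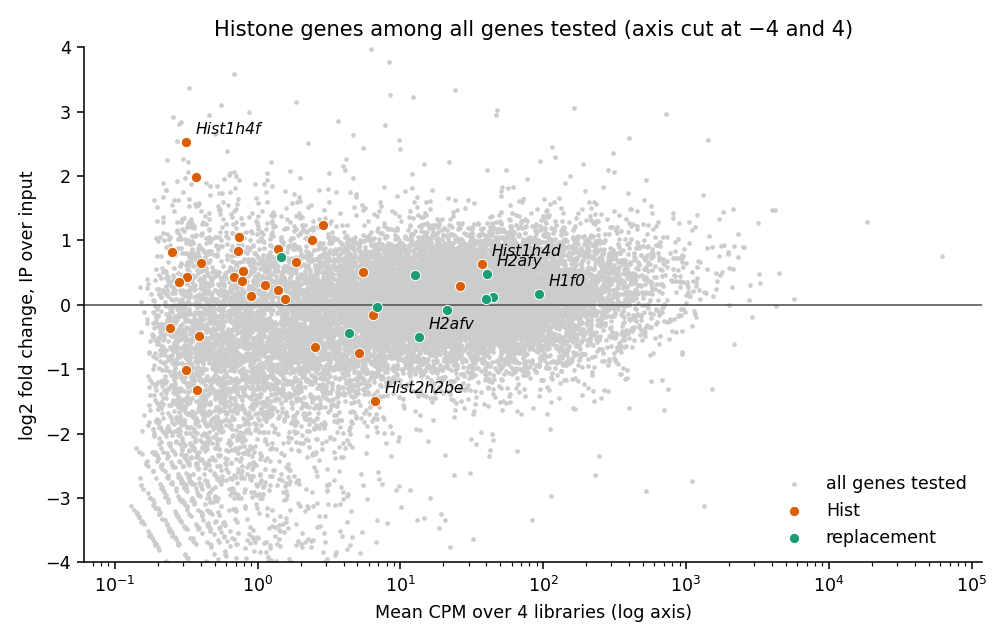
log2 fold change of IP over input (vertical axis, limited as its title says) against the mean CPM over the 4 libraries (log axis) for the 16600 genes tested (grey), with Hist genes in orange and replacement genes in green. Grey points below 1 CPM lie mostly under 0 (median -0.82), and the 16 Hist genes at that level, of which 3 passed the filter through IP alone, have a median of 0.43.

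The annotated structure of the genes went with the classes. Of the 32 Hist members 30 have 1 exon, as do 3 of the 10 replacement genes (H1f0, H1fx and H2afx). The median exonic length was 576.5 bases in the Hist class and 1943 bases in the replacement class. The 24 Hist1 members lie on chromosome 13 between 21715763 and 23764406, the 6 Hist2 members on chromosome 3 between 96219865 and 96270132, and the 2 Hist3 members on chromosome 11. In the Hist1 cluster 4 of 22 genes tested were higher and 1 lower, and in the Hist2 cluster 1 of 6 was higher and 1 lower. Over all genes tested 23.4% were higher and 22.4% lower. Hist1h4a and Hist1h4f, among the 4 in the Hist1 cluster, passed the filter on low counts through IP alone. A median of 59.8% of 50-base windows were unique to the gene among annotated transcripts in the Hist class and 91.6% in the replacement class, so many Hist genes may be undercounted. Of the 10 Hist genes with at least 80% unique windows, 3 were higher and 1 was lower (median log2 fold change 0.65), and of the 20 others tested 2 were higher and 1 was lower (median 0.32). The 2 higher genes among these others were again Hist1h4a and Hist1h4f.

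Hist transcripts that keep sequence past the stem-loop can be polyadenylated, which is known for several histone genes in differentiated cells. Of the 18 tested Hist genes with a stem-loop match, 4 were higher and 0 lower in IP (median log2 fold change 0.52), and 2 of the 4, Hist1h4a and Hist1h4f, passed the filter through IP alone. Of the 12 without a match, 1 was higher and 2 were lower (median 0.12). Over all genes tested 23.4% were higher and 22.4% lower, and the difference between genes with and without a match was not tested. The annotated sequence after the stem-loop ranged from 23 to 4884 bases over the 21 members with a match. It was 770 bases in Hist1h4d, 1257 in Hist2h4, 1153 in Hist1h1e and 822 in H2afx, which are abundant or called members. The called genes Hist1h4a and Hist1h4f had 108 and 33 bases, and Hist3h2ba, at a mean of 6.43 CPM, had 169. The uncalled genes Hist1h1d, Hist1h2ac and Hist1h2be had 4884, 2010 and 1861 bases, at means of 1.13, 0.25 and 2.52 CPM. How this length goes with level or call was not tested. A poly(A) signal (AATAAA or ATTAAA in the last 50 bases) ended an annotated transcript of 7 of the 32 Hist members and of all 10 replacement genes, against 78.1% of other protein-coding genes. Whether the libraries were made from poly(A) RNA is not given in the sources used here, so the counts may miss messenger RNAs that end at the stem-loop, and how this bears on IP and input was not tested.

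**Figure D5:**
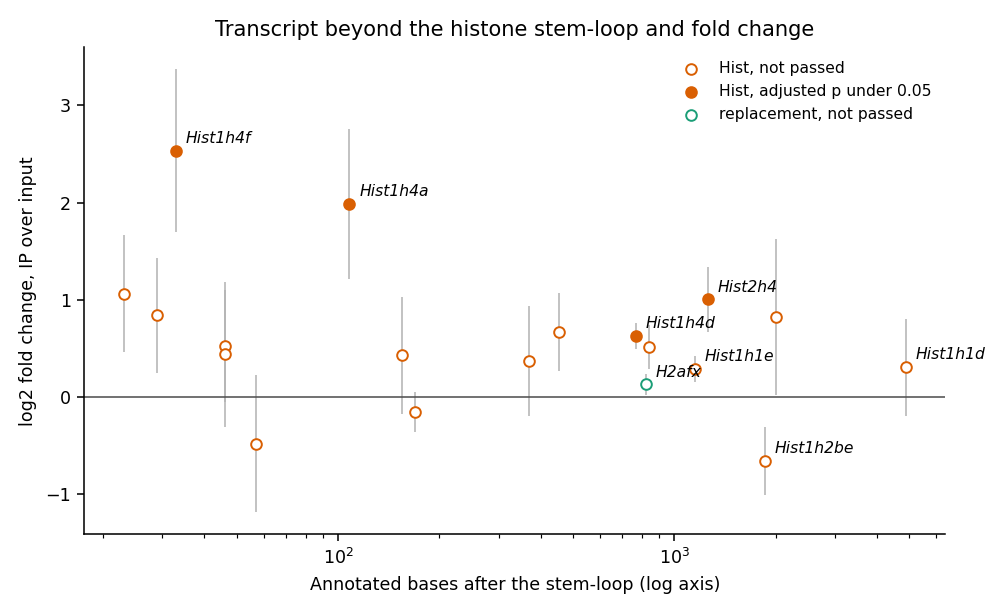
log2 fold change of IP over input (vertical axis, bars of 1 standard error) against the annotated bases after the stem-loop (log axis) for the 19 tested members with a match. Filled points passed the test. Hist1h4d and Hist2h4 lie at 770 and 1257 bases, and Hist1h4f and Hist1h4a, which entered the test only through IP, at 33 and 108 bases.

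The 250 bases before each start were searched for TATAAA on the strand of the gene and for CCAAT on either strand in RefSeq promoters (GRCm38.p6), in which 36 members were matched. TATAAA was found in 13 of 27 Hist promoters (48.1%), in 1 of 9 replacement promoters (11.1%), that of H3f3b, and in 7.59% of all 32851 promoters. At least 1 CCAAT was found in 24 of 27 Hist promoters (88.9%) and 5 of 9 replacement promoters (55.6%), against 33.8% of all. At least 2 were found in 66.7%, 44.4% and 10.1%. These matches are a description and not shown to be bound.

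Many H2A and H2B genes sit head to head and share the sequence between their starts, and 11 such pairs of names had starts within 500 bases of each other. The shared region of Hist2h2ac and Hist2h2be is printed because the genes differed in level (chr3:96220881-96221118, minus strand), beside the 150 bases before the RefSeq start of Hist1h4d, which lies upstream of its GENCODE start, because this is the Hist gene with the highest level per kilobase (chr13:23581418-23581567, plus strand). Capitals mark TATAAA and CCAAT, or ATTGG where CCAAT is on the other strand.
Hist2h2ac and Hist2h2be: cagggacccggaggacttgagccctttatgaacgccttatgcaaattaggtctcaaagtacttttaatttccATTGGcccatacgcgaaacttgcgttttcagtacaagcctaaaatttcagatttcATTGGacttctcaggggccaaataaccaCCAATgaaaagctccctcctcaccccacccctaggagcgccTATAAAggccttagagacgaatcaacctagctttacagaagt
Hist1h4d: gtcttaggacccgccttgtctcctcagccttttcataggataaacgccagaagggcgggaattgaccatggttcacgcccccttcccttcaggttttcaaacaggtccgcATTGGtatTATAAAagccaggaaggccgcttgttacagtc
Beside the first of these regions, Hist2h2be had 137, 143, 495 and 369 counts, and Hist2h2ac had 14, 12, 19 and 21 (log2 fold change -0.48 ± 0.70, edgeR adjusted p = 0.605). Their exonic lengths are 2620 and 520 bases, and 100% and 45% of their windows were unique. Per kilobase, Hist2h2be stood at 1.319 CPM in IP and 3.705 in input, and Hist2h2ac at 0.621 and 0.868, a smaller difference than in counts. In the pair Hist1h2ac and Hist1h2bc, with 250 bases between the starts, the H2B gene also had the more counts (155, 155, 329 and 243 against 13, 13, 7 and 9). Their fold changes had opposite signs, -0.75 for Hist1h2bc and 0.82 ± 0.80 for Hist1h2ac (edgeR adjusted p = 0.429). Hist1h2ac passed the filter on low counts through IP alone, so a difference towards IP was built into its testing.

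Histone chaperones carry histones to DNA. Of 32 tested chaperone genes, 15 were higher and 4 lower in IP, with a median log2 fold change of 0.28, beside 23.4% higher and 22.4% lower over all genes tested. Most of the chaperone genes averaged 5 CPM or more, and calls depended on level. Of all genes, 28.1% were higher at 5 to 50 CPM and 43.9% at 50 to 500 CPM. The difference from genes of like level was not tested. Ssrp1, a subunit of the FACT complex, had 81.3, 81.5, 38.3 and 38 CPM (log2 fold change 1.09 ± 0.10, edgeR adjusted p = 1.25e-07). Ipo4, an importin for H3 and H4, had 62.8, 66.1, 35.7 and 37.3 CPM (log2 fold change 0.82 ± 0.11, edgeR adjusted p = 6.4e-06). Chaf1a, a subunit of the replication-coupled chaperone CAF-1, had 8.6, 7.59, 5.57 and 3.9 CPM (log2 fold change 0.77 ± 0.23, edgeR adjusted p = 0.00887). Ubn2, a partner of the H3.3 chaperone HIRA, had 48.5, 52.1, 158.7 and 167.6 CPM and was the chaperone gene with the largest difference among those called (log2 fold change -1.70 ± 0.10, edgeR adjusted p = 2.31e-10). The call of Chaf1a was lost with library sizes alone (adjusted p = 0.0681) and without input 4 (0.113). The other genes called lower, named after their values were seen, were Asf1a, a chaperone of H3 and H4 (log2 fold change -0.63 ± 0.16, edgeR adjusted p = 0.00401), Hira (-0.36 ± 0.12, 0.024) and the H2A.Z chaperone gene Vps72 (-0.38 ± 0.14, 0.0275). Hira and Vps72 did not pass when IP 4 (adjusted p = 0.15 and 0.133), input 2 (0.111 and 0.117) or input 4 (0.0515 and 0.0705) was left out.

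Of 24 tested genes that process replication-dependent histone messenger RNA, 10 were higher and 1 was lower in IP (median 0.18), beside the same 23.4% and 22.4% over all genes. Most of these genes also averaged 5 CPM or more, where the shares of all genes called higher were 28.1% (5 to 50 CPM) and 43.9% (50 to 500 CPM). The difference was not tested. Slbp, the gene of the protein that binds the stem-loop, had 24.8, 24.6, 14.6 and 13.1 CPM and was 1.79-fold higher (log2 fold change 0.84 ± 0.14, edgeR adjusted p = 9.06e-05). Cpsf2 and Cpsf1, of the cleavage machinery, were higher by 0.84 ± 0.10 and 0.80 ± 0.16 on the log2 scale (edgeR adjusted p = 1.03e-06 and 0.000386). Ncbp1, the large subunit of the nuclear cap-binding complex, was higher by 0.76 ± 0.12 (edgeR adjusted p = 4.35e-05). The gene called lower was Npat, a coactivator of replication-dependent histone genes, named after its values were seen, with 25.3, 30.5, 46.1 and 47.7 CPM (log2 fold change -0.75 ± 0.12, edgeR adjusted p = 7.31e-05). The libraries did not overlap at Slbp or at Npat.

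Of 26 tested genes of proliferating cells, 5 were higher, 1 was lower and 20 did not pass, with a median log2 fold change of 0.29. The share called higher was near the 23.4% of all genes, but calls depended on level and most of the genes tested averaged under 5 CPM. Of all genes, 1.22% were higher under 1 CPM, 6.16% from 1 to 5 CPM and 28.1% from 5 to 50 CPM. The difference from genes of like level was not tested. The 30 genes listed summed to 96 and 105.6 CPM in IP and to 77.9 and 78.5 CPM in input. Pcna, the replication clamp, had 13.6, 13.8, 8.67 and 7.81 CPM (log2 fold change 0.73 ± 0.17, edgeR adjusted p = 0.00172). Rrm1, a subunit of ribonucleotide reductase, and Mcm6, of the replicative helicase, were higher by 0.77 ± 0.19 and 0.79 ± 0.24 (edgeR adjusted p = 0.00248 and 0.0118), and the call of Mcm6 was lost without IP 4 (0.168), without input 4 (0.075) and with library sizes alone (0.0761). Gmnn, an inhibitor of replication licensing, and Aurka, a mitotic kinase, both named after their values were seen, were higher by 1.59 ± 0.31 and 1.39 ± 0.52 (edgeR adjusted p = 0.000316 and 0.0359). The call of Aurka was lost with DESeq2 (adjusted p = 0.0534), with library sizes alone (0.0789), without IP 4 (0.0569) and without input 4 (0.318). The gene called lower was Mki67, a marker of cycling cells also named after its values were seen, with 1.5, 1.06, 3.12 and 4.6 CPM (log2 fold change -1.59 ± 0.35, edgeR adjusted p = 0.00112). The part of such cells in the Hist values was not tested.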

How the data were processed

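The authors deposited 1 file per library with raw read counts for each gene name. STAR 2.0.0e, HTSeq and the build mm10 are named by the submitters' processing notes. The sources used here do not state the annotation, strand setting or library kit. Lines that name no gene, among them 1 called unknown with 0 to 2 counts, entered neither library sizes nor tests. Reads without a unique alignment were 37% and 38% of records in the IP libraries and 32.1% and 30.7% in the input libraries. Ambiguous reads were 1.54% in both IP libraries and 5.07% and 5.09% in input. Reads in no gene were 7.31% and 7.54% in IP and 14.9% and 13.5% in input. How these differences between the groups bear on the fold changes was not tested.

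The test was that of edgeR 4.0.16 under R 4.3.3 (TMM, filterByExpr with a minimum count of 10 and total of 15, quasi-likelihood test of IP against input, two-sided, Benjamini-Hochberg over all genes tested, threshold 0.05). The biological coefficient of variation was 12.5%, and the prior degrees of freedom 16.8 beside 2 residual ones. Replicates differed well beyond sampling noise (chi-square over degrees of freedom 21.2 in IP and 14.5 in input), and none repeats another. Alternatives were DESeq2 1.42.0, its size factors in edgeR, library sizes alone, 3 other filters, a replicate block, offsets for exonic length and GC content (mgcv 1.9.3), and leaving out each library.

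All histone members could be named. Per-library values are given for replacement genes and for Hist genes that average 1 CPM or more, and from other lists up to 4 called genes with the largest fold change among those at 5 CPM or more, with exceptions stated in place. The members and lists were chosen with earlier results of these data known, so no p is given over members. Cell type lists are given by counts and summed levels, and a gene is named only where a sum is given without it. Gene models and stem-loops came from GENCODE vM21 (GRCm38), in which all 79 names were matched, and promoters from RefSeq GRCm38.p6.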

Additional observations from a re-analysis of the deposited data

How the results depend on the processing

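The calls of Hist1h4d and Hist2h2be held in each of the refits, and the counts and medians moved as follows. With library sizes alone in place of TMM, 2153 genes were higher and 5902 lower among all genes, 3 Hist genes were higher with a median of 0.137, and 0 replacement genes were higher and 2 lower with a median of -0.148. DESeq2 and the filter of 50 counts in every library of a group each called 3 Hist genes higher and 1 replacement gene higher. With length and GC offsets 1 Hist gene was lower with a median of 0.702, and 1 replacement gene was higher and 0 were lower. Among Hist genes with a stem-loop match 0 were lower. Leaving out each library in turn gave 1 (without input 2) to 6 (without IP 2) Hist genes higher and 1 (without input 2) to 3 lower. It gave 1 to 2 replacement genes higher and 0 to 1 lower, the lower values without IP 2 or without input 2. In these refits the group with a lone library is assumed to vary like the other.

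Equal replicate numbers are not stated to pair libraries. The deviations of same-numbered libraries from their group means correlated at 0.094 over all genes and 0.001 over histone genes, so the numbers were taken as names only. With a replicate block 4314 genes were higher and 4037 lower, Hist1h1e gained its call (0.289, adjusted p = 0.0358) and Hist1h4a lost it (2.04, adjusted p = 0.0615). With the block and the offsets together 1 Hist gene was lower with a median of 0.695, 0 replacement genes were lower, and the uncalled genes H2afz (0.078), Hist1h2bn (0.123) and Hist3h2ba (0.133) changed sign.

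The other changes of sign were in uncalled genes as well. With library sizes alone they were H1f0 (-0.093), H2afx (-0.132), H3f3b (-0.165), Hist1h2ak (-0.123), Hist2h2ab (-0.031) and Hist2h2bb (-0.162), and with the offsets H2afz (0.084), Hist1h2bn (0.029) and Hist3h2ba (0.135). Leaving out each library in turn gave log2 fold changes that spanned 0 for H2afj (-0.273 to 0.142), H2afz (-0.213 to 0.131), Hist1h1d (-0.055 to 0.776), Hist1h2ak (-0.211 to 0.585), Hist1h2bg (-0.021 to 0.762), Hist1h2bl (-0.258 to 1.183), Hist1h2bn (-0.884 to 0.451) and Hist2h2ab (-0.171 to 0.766). The cause was not tested for any of these, beyond the smaller number of genes under the stricter filter. At this depth 3 counts come to 0.066 to 0.0789 CPM, the level that a count of 0 allows.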
